A study of Mus musculus with 27 samples.

Results

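The integrated stress response genes described here were Atf4, Ddit3, Atf3, Trib3, Asns, Chac1, Sesn2, Gdf15 and Fgf21, followed in mouse muscle after cardiotoxin (CTX), a snake venom toxin that destroys myofibres and starts regeneration. They were chosen by name, and all 9 were found in both expression tables as 10 entries, since Ddit3 was listed under 2 gene IDs. The table of injured muscle held 55852 entries, of which 15718 passed the filter of at least 1 TPM in at least 3 libraries, all 10 of these entries among them. TPM is a transcript level corrected for gene length and for the total of the library. The table with uninjured muscle held 55677 entries, of which 13041 passed, 9 of the 10 among them, with Fgf21 below the filter.

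Bulk RNA-seq was made from 27 libraries. Uninjured muscle of wild-type (WT) male C57BL/6J mice (control, n = 3) was set beside CTX-injured muscle of WT mice and of mice lacking Gsdme throughout the body (KO), 3 libraries of each on D1, D4, D7 and D14 after injury. Gsdme encodes gasdermin E, a pore-forming protein cut by caspase-3. The sample titles call the second genotype KO and the genotype field calls it a knockdown, the age was not stated, and no library was labelled with a batch. By the study's methods, control was the uninjured muscle of the opposite leg a day after CTX, sequenced with injured muscle of that day apart from the other samples. The methods also place WT muscle of D1 in the other batch, with KO and the later days. The 3 WT D1 libraries are in both tables and no label gives their batch, so it is open which batch they came from. Batch and group therefore cannot be told apart where WT D1 is compared with control, with KO D1 or with a later day. Gsdme itself was between 1.80 and 4.85 TPM in the WT libraries and between 0.95 and 2.17 TPM in the KO libraries over the first 3 time points, without overlap at any of them. On D14 it overlapped, with 1.46 to 2.26 TPM in WT and 1.27 to 1.96 TPM in KO. Averaged over days, the log2(TPM + 1) difference of KO minus WT in Gsdme was -0.55, with an adjusted p of 0.0664 in limma. All 10 mature myofibre markers averaged at least 1 TPM in every group. The KO D4 replicate 2 stood apart, with 600 TPM of monocyte and macrophage markers. The other KO D4 libraries had 4016 and 4843 TPM, so most results that rest on the replicate 2 are given with and without it. Other libraries also differed from their groups. The WT D1 replicate 3 had 998 TPM of these markers against 2713 and 4193 TPM, and the KO D7 replicate 2 had 630 against 1523 and 1637 TPM. The KO D1 replicate 3 had 3748 TPM of neutrophil markers against 636 and 316 TPM.

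When a cell lacks amino acids, holds misfolded protein in the endoplasmic reticulum (ER), carries viral RNA or lacks heme, kinases phosphorylate the initiation factor eIF2alpha. General translation then falls while that of the Atf4 mRNA rises, and the ATF4 protein switches on genes for amino acid supply, redox balance and, with lasting stress, cell death. Because ATF4 is controlled largely at translation and by protein turnover, its mRNA need not follow its protein, and muscle releases the targets Gdf15 and Fgf21 as stress hormones.

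ATF4 binds, with C/EBP partners, to a composite element that can be written TGATGNAA. Within 250 bases before and 50 bases after the annotated starts (RefSeq, GRCm38.p6), this motif was found on either strand in 5 of the 9 genes, against 4.51% of 27025 genes in all. The palindromic cyclic AMP response element TGACGTCA was found in none of the 9, against 2.03% of all genes. The 5 matches are shown because the genes that carry them went in different directions after injury. Capitals mark the match, and each line is written in the direction of the gene.
Atf3: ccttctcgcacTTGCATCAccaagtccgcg
Trib3: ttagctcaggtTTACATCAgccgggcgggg
Asns: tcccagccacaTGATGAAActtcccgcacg
Chac1: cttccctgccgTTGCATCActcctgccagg
Fgf21: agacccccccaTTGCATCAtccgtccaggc
The Asns match lay on the gene's own strand at position -23 from the RefSeq start, within chr6:7693214-7693243 on the minus strand, which is inside the gene as GENCODE annotates it. The other matches lay on the opposite strand. That of Atf3 was at position -110, within chr1:191183425-191183454 (minus strand), upstream of a RefSeq start that lies inside the longer GENCODE gene. That of Fgf21 was at position -139, within chr7:45615611-45615640 (minus strand), and that of Chac1 at position -193, within chr2:119351038-119351067 (plus strand). The Trib3 match began at position 15, after the RefSeq start, within chr2:152344028-152344057 (minus strand), just upstream of the start that GENCODE annotates. Atf3, Chac1 and Fgf21 share the same 8 letters. These windows did not hold the motif in Atf4, Ddit3, Sesn2 or Gdf15. A match describes letters, not binding.

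The first question was what injury does to these genes within a day. In WT muscle on D1, 7 of the 9 genes were higher than in control, and 1, Chac1, was lower. Asns was 5.30 times and Atf3 4.43 times the control mean, while Atf4 was 1.62 times and Chac1 fell to 0.151 of it. Counted over the entries, 8 of the 9 tested were called higher and 1 lower at an adjusted p under 0.05, against 55.4% of all tested genes higher and 5.64% lower. All 9 also had no overlap between the WT D1 and control libraries, which held for 64.2% of tested genes upward and 7.03% downward. The median of all tested genes was itself 0.66 higher on the log2(TPM + 1) scale, so each difference has to be read against that shift. With libraries scaled by median-of-ratios, which brings that median to 0.00, 21.2% of genes were called higher and 21.2% lower.

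Atf4 (chr15:80255184-80257541, plus strand), the transcription factor at the centre of the response, was already abundant in uninjured muscle. Its levels were 146, 124 and 134 TPM in the 3 control libraries and 185, 243 and 227 TPM in the 3 WT D1 libraries, so that each injured library was above each control. The log2 difference was 0.68 (SE 0.17, adjusted p = 0.00913), close to the shift of all genes, and after median-of-ratios scaling it became -0.10 (adjusted p = 0.633). Whether Atf4 mRNA rose thus depended on the scaling.

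Ddit3 (chr10:127290774-127296288), which encodes the ATF4 partner and cell death factor CHOP, was 13.0, 11.3 and 11.9 TPM in control and 28.9, 59.4 and 30.2 TPM on D1. The second D1 library was far above the others, and the groups did not overlap. The log2 difference was 1.55 (SE 0.27, adjusted p = 0.00308) and remained 0.80 (adjusted p = 0.0174) after median-of-ratios scaling. A second entry with the name Ddit3, of 105 bases, lies inside the span of the same locus at chr10:127290829-127293753. It was listed at 0 TPM in every control library and at 179, 214 and 95.3 TPM in the WT D1 libraries (adjusted p = 1.43e-05). Reads of the 2 entries cannot be told apart where they overlap, and a gene this short gets an unsteady TPM, so its values are uncertain.

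Atf3 (chr1:191170296-191218039) encodes a stress-induced factor that many signals besides ATF4 turn on. It was 12.9, 8.33 and 5.60 TPM in control and 36.6, 63.8 and 18.6 TPM on D1, a log2 difference of 1.93 (SE 0.43, adjusted p = 0.00668). Trib3 (chr2:152337422-152344032), a pseudokinase that feeds back on ATF4, was 1.16, 0.90 and 0.85 TPM in control and 1.94, 4.26 and 2.13 TPM on D1. Both were higher in every injured library, and for both the second D1 library was the highest. The Trib3 difference of 0.89 (SE 0.26, adjusted p = 0.0182) was 0.40 after median-of-ratios scaling and then missed the threshold (adjusted p = 0.125), while that of Atf3 was 1.19 (adjusted p = 0.0437). Without the control replicate 2 or 3 Trib3 also missed it (adjusted p = 0.0624 and 0.0598).

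Of the enzymes, Asns (chr6:7675169-7693254), which makes asparagine from aspartate, was 1.88, 1.77 and 1.62 TPM in control and 9.61, 14.0 and 4.27 TPM on D1 in the same table. The log2 difference was 1.78 (SE 0.36, adjusted p = 0.00466), and 1.16 (adjusted p = 0.0171) after median-of-ratios scaling. Chac1 (chr2:119351229-119354381), which degrades glutathione, went the other way, with 45.8, 46.3 and 38.4 TPM in control and 14.1, 3.01 and 2.69 TPM on D1. Every injured library was below every control, by a log2 difference of -2.87 (SE 0.48, adjusted p = 0.00271), or -3.56 (adjusted p = 0.0048) after the scaling. Asns and Chac1 both carry the motif printed above, as do Atf3 and Trib3.

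Sesn2 (chr4:132492032-132510501), a leucine-sensing inhibitor of mTORC1, was 1.38, 1.18 and 1.38 TPM in control and 4.46, 6.69 and 2.23 TPM on D1. Its log2 difference was 1.15 (SE 0.31, adjusted p = 0.0135), 0.60 (adjusted p = 0.0715) after median-of-ratios scaling and 1.11 (adjusted p = 0.053) without the control replicate 2. The gene Gm12981 overlaps the span of Sesn2 on the same strand, so reads there could belong to either. Gdf15 (chr8:70629393-70632456), a hormone that lowers appetite through the receptor Gfral, was 0.03, 0.24 and 0.24 TPM in control and 3.22, 6.85 and 1.78 TPM on D1. It started near 0 and was above control in each injured library (log2 difference 1.95, SE 0.35, adjusted p = 0.00329), and 1.57 (adjusted p = 0.00716) after the scaling. Fgf21 (chr7:45613886-45615490), a hormone that acts through the co-receptor Klb, was 0.00, 0.52 and 0.05 TPM in control, was listed at 0 in the WT D1 libraries and was not tested there.

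**Figure D1:**
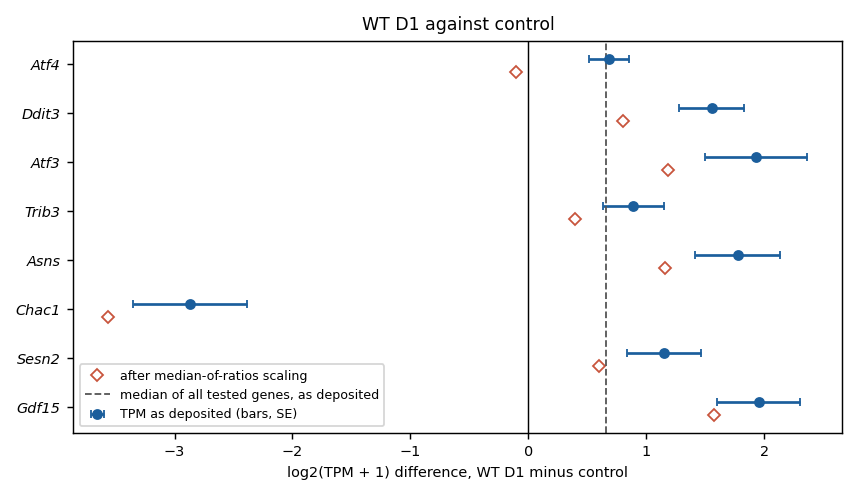
Log2(TPM + 1) difference of WT D1 minus control for the 8 tested genes (3 libraries a group). Filled points with bars are limma estimates and their SE, open diamonds the same difference after median-of-ratios scaling, and the dashed line the median of all tested genes at 0.66. Chac1 alone lies left of 0 as deposited, and Atf4 lies on the median.

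The makeup of the tissue changed on the same day. Summed monocyte and macrophage markers were 218 to 285 TPM in control and 1000 to 4197 TPM on D1. Of these markers 10 of 10 were called higher, and of the tested neutrophil markers 7 of 7, against 55.4% of all tested genes. After median-of-ratios scaling the counts were 10 of 10 and 6 of 7, against 21.2% of all genes. Summed mature myofibre markers were 155766 to 167609 TPM in control and 78901 to 158654 TPM on D1. In bulk muscle, fewer cells of a type and less RNA per cell cannot be told apart, and the part of these changes in the results was not tested.

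The library with the lowest macrophage sum of its group was also lowest for between 2 and 7 of the genes. The share of all tested genes that were lowest in these libraries was not counted. The counts therefore show no link particular to these genes. The WT D1 replicate 3, with the lowest macrophage sum and the highest myofibre sum of its group, had the lowest value for 5 of the 8 genes detected there (Asns, Atf3, Chac1, Gdf15 and Sesn2). The KO D7 replicate 2, with 630 TPM of macrophage markers against 1523 and 1637 TPM, was lowest for 7 of 9. In KO D4 the replicate 2 was lowest for 6 of 9 (Asns, Atf3, Ddit3, Fgf21, Gdf15 and Sesn2), and in KO D1 the replicate 2 for 6 of 9. In control, where the macrophage sums were close together, the library with the lowest sum was lowest for 4 of 9. The share was 3 of 9 in WT D4 and in WT D7, 6 of 8 in WT D14 and 2 of 8 (Asns and Sesn2) in KO D14.

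The wider pathway was read from lists of related genes. The eIF2alpha kinases and phosphatase subunits were called higher in WT D1 for 6 of 7, none lower, against 55.4% of all tested genes higher. Eif2ak2, the kinase PKR that senses double-stranded RNA, went from 0.91 to 7.08 TPM (log2 difference 1.98, adjusted p = 0.00284), while Eif2ak3 (PERK, 0.88, adjusted p = 0.0229) and Eif2ak4 (GCN2, 0.95, adjusted p = 0.0166) differed by less. Eif2ak1, the heme-regulated kinase, differed by 0.39 and was not called (adjusted p = 0.0827). Ppp1r15a, the subunit that removes the phosphate from eIF2alpha, went from 24.1 to 50.1 TPM (0.97, adjusted p = 0.0194). The median difference of the list was 0.97, against 0.66 for all genes. After median-of-ratios scaling it was 0.41, with 2 of 7 called higher, against 21.2% of all genes.

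Serine, one-carbon and amino acid synthesis genes were called higher for 10 of the 12 tested, against 55.4% of all tested genes. As deposited none was lower, and the median difference was 1.34 against 0.66 for all genes. Psat1, of serine synthesis, rose from 2.34 to 32.7 TPM (log2 difference 3.21, adjusted p = 0.00108). Mthfd2, of mitochondrial folate metabolism, rose from 3.63 to 25.9 TPM (2.51, adjusted p = 0.00103). Phgdh, the first enzyme of serine synthesis, rose by 1.53 and Aldh1l2 by 0.75. After median-of-ratios scaling 5 of the 12 were called higher and 2 lower, against 21.2% of all genes each way. The median of the list was then 0.65. Amino acid transporters were higher for 7 of 7 tested, led by Slc7a5, the leucine carrier, from 1.45 to 16.1 TPM (2.67, adjusted p = 0.00165). After the scaling 4 of the 7 were called higher. The cystine carrier Slc7a11, which brings in the raw material of glutathione, was at most 0.06 TPM in control and 0.67 TPM on D1 and was below the filter.

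All 16 genes of the ER unfolded protein response list were called higher, against 55.4% of all tested genes, with a median difference of 2.09. Sdf2l1, an ER chaperone cofactor, had the largest, from 6.48 to 85.9 TPM (3.47, adjusted p = 0.000349). Hspa5, which encodes the ER chaperone BiP, went from 69.9 to 363 TPM (2.31, adjusted p = 0.00109), Xbp1 differed by 1.42 and Dnajb9 by 0.94. After median-of-ratios scaling 13 of the 16 were called higher, with a median of 1.33. Of 20 cytosolic aminoacyl-tRNA synthetases, 19 were higher, but their median difference of 0.71 was near the 0.66 of all genes and turned to -0.07 after median-of-ratios scaling, with 4 called higher. Of 8 genes of mitochondrial stress only 3 were higher (Clpp, Hspd1 and Hspe1), with a median of 0.26. After median-of-ratios scaling 0 were called higher and 5 lower, with a median of -0.52, so the direction of this list depended on the scaling.

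Among partner transcription factors 4 of 6 were higher, against 55.4% of all tested genes, with a median difference of 0.74 against 0.66 for all genes. After median-of-ratios scaling the median of the partner factors was -0.01, with 1 called higher and 1 lower. As deposited, Cebpb differed by 1.74 (adjusted p = 0.00219) and Cebpg by 0.62, below the median of all genes, while Atf5 (0.43, adjusted p = 0.0531) and Nupr1 (-0.21, adjusted p = 0.561) were not called. Other ATF4 targets were higher for 8 of 11 with a median of 0.74, again against 55.4% and 0.66, and after median-of-ratios scaling for 3 of 11 with a median of 0.29. As deposited they were led by Eif4ebp1, a brake on cap-dependent translation (2.20), and Ddit4, an inhibitor of mTORC1 (2.02), and lower for Vegfa (-0.95, adjusted p = 0.00532). The p53 targets, read because Sesn2, Gdf15 and Atf3 also answer to p53, were higher for 6 of 8, with Cdkn1a from 20.2 to 124 TPM (2.47) and Bax from 19.2 to 122 TPM (2.50). After median-of-ratios scaling 3 of the 8 were called higher, with a median of 0.22. Of the paralogs and receptors, Trib1 (1.54, adjusted p = 0.00491) and Fgfr1 (0.50) were higher. Sesn1 (0.41, adjusted p = 0.0974) and Sesn3 (0.00) were not called, and Klb averaged 0.22 TPM in control.

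The next question was how the genes moved through repair in WT muscle. Neighbouring steps share libraries and are set side by side only. From D1 to D4, 1 of the 10 entries was called higher, against 14.6% of all tested genes, and 3 were called lower, against 5.27%, with an all-gene median of 0.17. Fgf21 rose from 0 in all 3 D1 libraries to 5.70, 3.37 and 5.71 TPM on D4 (adjusted p = 0.000101). It was found in every WT D4 library and in no WT D1 library.

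Atf4 fell on D4 to 153, 125 and 125 TPM, all below the D1 libraries (log2 difference -0.69, SE 0.12, adjusted p = 0.000763). Ddit3 fell to 22.4, 23.0 and 19.6 TPM (-0.76, SE 0.25, adjusted p = 0.0359), but this call was lost without any 1 of the 3 WT D4 libraries (adjusted p = 0.0643 to 0.0988) or without the WT D1 replicate 2, where the difference was -0.43 (adjusted p = 0.174). The short Ddit3 entry fell to 7.13, 0.00 and 0.00 TPM (adjusted p = 0.00205). Asns was not called, and at 22.1, 13.0 and 13.9 TPM it overlapped its D1 libraries (0.80, SE 0.43, adjusted p = 0.209).

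The other genes did not pass the test on this step. Atf3 was 21.6, 21.6 and 26.5 TPM on D4 (-0.59, adjusted p = 0.363) and Trib3 1.98, 1.01 and 1.48 TPM (-0.57, adjusted p = 0.0793). Sesn2 was 8.42, 5.25 and 4.21 TPM (0.40, adjusted p = 0.331), Gdf15 5.34, 2.91 and 3.40 TPM (0.08, adjusted p = 0.922) and Chac1 2.42, 3.79 and 4.63 TPM (-0.42, adjusted p = 0.69). All 5 overlapped their D1 libraries.

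Fgf21 is made mainly by liver and also by acinar pancreas, so the markers of these tissues were read beside it. The 7 liver markers summed to 1.65 to 2.89 TPM in WT D4. The 10 acinar pancreas markers summed to 7.25 to 25.3 TPM in WT D4, 3.79 to 47.5 TPM in WT D1 and 78.8 TPM in the KO D4 replicate 2. Developmental myofibre markers, of which Myh3 and Myh8 are the embryonic and neonatal myosins, summed to 1240 to 1949 TPM in WT D4 and 103 to 164 TPM in WT D1. Their part in the Fgf21 values was not tested.

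From D4 to D7, 1 entry was called higher, against 3.04%, and 3 lower, against 9.31% of all tested genes (median -0.24). Asns fell to 5.55, 4.77 and 5.35 TPM (-1.44, SE 0.43, adjusted p = 0.0365), Sesn2 to 2.66, 1.86 and 2.49 TPM (-1.02, SE 0.27, adjusted p = 0.0226) and Fgf21 to 0.40, 0.40 and 0.54 TPM (-2.01, SE 0.34, adjusted p = 0.00338). None of these overlapped D4. The entry called higher was the uncertain short Ddit3 entry, at 102, 10.7 and 177 TPM (adjusted p = 0.0232). Ddit3 itself was at 20.5, 20.3 and 21.9 TPM (-0.05, adjusted p = 0.911).

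Several genes had libraries that did not overlap on this step yet missed the threshold. The share of all tested genes without overlap was not counted for this or the other repair steps. On this step 5263 of 15718 genes had an unadjusted p under 0.05 in limma. Atf3 was 10.8, 11.8 and 9.35 TPM (-1.06, adjusted p = 0.0936), Gdf15 1.53, 1.30 and 1.04 TPM (-1.07, adjusted p = 0.0939), Atf4 106, 96.5 and 106 TPM (-0.37, adjusted p = 0.0522) and Chac1 23.7, 8.49 and 8.02 TPM (1.51, adjusted p = 0.109). Trib3, at 1.13, 1.07 and 1.30 TPM, lay within its D4 range. Fgf21 was called without any single library. Asns lost its call without 5 of the 6 libraries (adjusted p = 0.0525 to 0.172), and Sesn2 without the WT D4 replicate 1 or the WT D7 replicates 2 or 3 (adjusted p = 0.14, 0.0992 and 0.0801).

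From D7 to D14, no entry was called higher, against 0.923%, and 2 lower, against 30.9% of all tested genes (median -0.45). Asns fell to 1.72, 1.45 and 1.12 TPM (-1.36, SE 0.43, adjusted p = 0.0248) and Atf3 to 4.65, 7.48 and 2.13 TPM (-1.13, SE 0.42, adjusted p = 0.0479). Both lay below D7 in every library. With the replicate block the Atf3 call was lost (adjusted p = 0.0508), and after median-of-ratios scaling both were (adjusted p = 0.0503 for Asns and 0.212 for Atf3). Atf3 was called only with all libraries or without the WT D14 replicate 2, and Asns lost its call without the WT D14 replicate 3 or the WT D7 replicates 1 or 3 (adjusted p = 0.099, 0.0876 and 0.053). The share of 2 in 10 was below that of all genes. Sesn2 was 1.19, 1.05 and 1.00 TPM (-0.67, adjusted p = 0.0588), Gdf15 0.16, 0.31 and 0.27 TPM (-0.87, adjusted p = 0.112) and Fgf21 was listed at 0 again.

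Chac1 was 33.3, 27.5 and 28.5 TPM on D14, above every D7 library (1.26, SE 0.64, adjusted p = 0.124), without passing the test. Atf4 was 119, 113 and 108 TPM, also above D7 (0.14, adjusted p = 0.375), or 0.73 after median-of-ratios scaling (adjusted p = 0.0158). Ddit3 was 21.2, 16.2 and 15.5 TPM (-0.25, adjusted p = 0.434) and Trib3 1.72, 1.41 and 1.07 TPM (0.14, adjusted p = 0.625), both overlapping D7.

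The control libraries were in another table, so D14 was not tested against them. The same WT D1 libraries had close values in both tables for each member, with the largest gap for Asns at -3.31%. This shows only that the tables were scaled alike. By the study's methods control was sequenced apart from D14, so batch and group cannot be told apart in these levels. By levels, WT D14 was within the control range or below for Asns, Sesn2, Atf3 and Fgf21. Gdf15 and Trib3 were above it in 2 of 3 libraries each. Ddit3 was above it in all 3 libraries, at 15.5 TPM or more against at most 13.0 TPM in control. Atf4 and Chac1 were below it, with at most 119 TPM against at least 124 TPM and at most 33.3 TPM against at least 38.4 TPM.

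**Figure D2:**
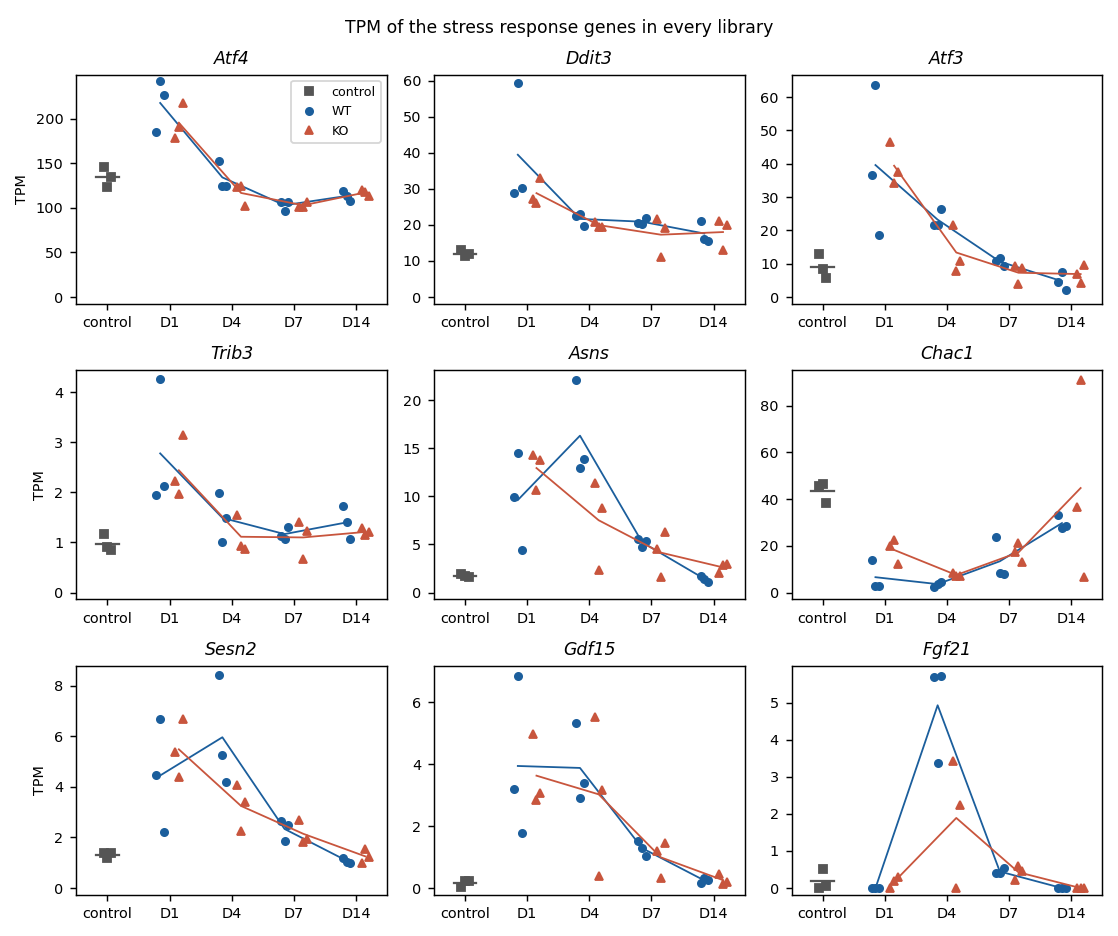
TPM of each gene in every library, with control (grey squares, from the table of uninjured muscle) and D1, D4, D7 and D14 after injury in WT (blue circles) and KO (red triangles). Lines join the group means, and each panel has its own linear axis. Fgf21 peaks at 3.37 to 5.71 TPM in WT D4, and in both genotypes the group means of Atf4 and Atf3 are highest on D1 and that of Chac1 is lowest on D4.

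In KO muscle the members called on the first step were Atf4, Atf3, Trib3 and Fgf21. From D1 to D4, 1 entry was called higher, against 7.18%, and 3 lower, against 12.2% of all tested genes (median -0.15). Atf4 fell from 179, 191 and 217 TPM to 124, 125 and 102 TPM (-0.74, SE 0.12, adjusted p = 0.000748). Atf3 fell from 46.4, 34.2 and 37.6 TPM to 21.7, 7.67 and 10.8 TPM (-1.60, SE 0.42, adjusted p = 0.0142) and Trib3 from 2.22, 1.96 and 3.14 TPM to 1.55, 0.92 and 0.87 TPM (-0.70, SE 0.22, adjusted p = 0.0337). Without the KO D4 replicate 2, Atf3 and Trib3 missed the threshold (adjusted p = 0.0629 and 0.0937). Atf3 was also lost without the KO D1 replicate 1 (adjusted p = 0.0562), and Trib3 without the KO D1 replicates 1 or 3 or the KO D4 replicate 3 (adjusted p = 0.0689, 0.163 and 0.0986).

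Fgf21 in KO went from 0.00, 0.20 and 0.30 TPM on D1 to 3.42, 0.00 and 2.25 TPM on D4 (1.07, SE 0.34, adjusted p = 0.0354), and 1.71 (adjusted p = 1.89e-05) without the replicate 2. Leaving out any other library of these groups ended its call, with differences of 0.64 to 1.15. Asns went from 14.3, 10.7 and 13.8 TPM to 11.4, 2.32 and 8.82 TPM (-0.90, adjusted p = 0.133), and Gdf15 from 4.99, 2.84 and 3.07 TPM to 5.52, 0.39 and 3.18 TPM (-0.44, adjusted p = 0.478). In all 3 genes the replicate 2 held the lowest D4 value. Chac1 was 20.1, 22.6 and 12.03 TPM and then 8.45, 7.05 and 7.02 TPM, without overlap but not called (-1.14, adjusted p = 0.201).

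For the later KO steps limma called 0 of the 10 entries, against 0% of all tested genes higher and 0% lower from D4 to D7 and 0.0827% higher and 0.477% lower from D7 to D14. At an unadjusted p under 0.05 there was 1 entry on the first of these steps (Fgf21, -0.78, adjusted p = 0.459) and 0 on the second. Without the KO D4 replicate 2, Fgf21 (-1.42, adjusted p = 0.000457) and Gdf15 (-1.44, adjusted p = 0.021) were called lower on the first. In that fit 8.08% of all tested genes were called lower and 0.668% higher. On D7 the KO libraries had 102, 101 and 107 TPM of Atf4, 9.19, 4.01 and 8.67 TPM of Atf3, 4.49, 1.64 and 6.32 TPM of Asns and 17.2, 21.1 and 13.2 TPM of Chac1. On D14 Chac1 was 36.7, 90.8 and 6.75 TPM, with a wider spread (SD 42.6) than in the other groups, and without the highest library the step was -0.07 in place of 0.74. Asns was then 2.02, 2.88 and 2.94 TPM and Sesn2 0.98, 1.54 and 1.24 TPM.

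**Figure D3:**
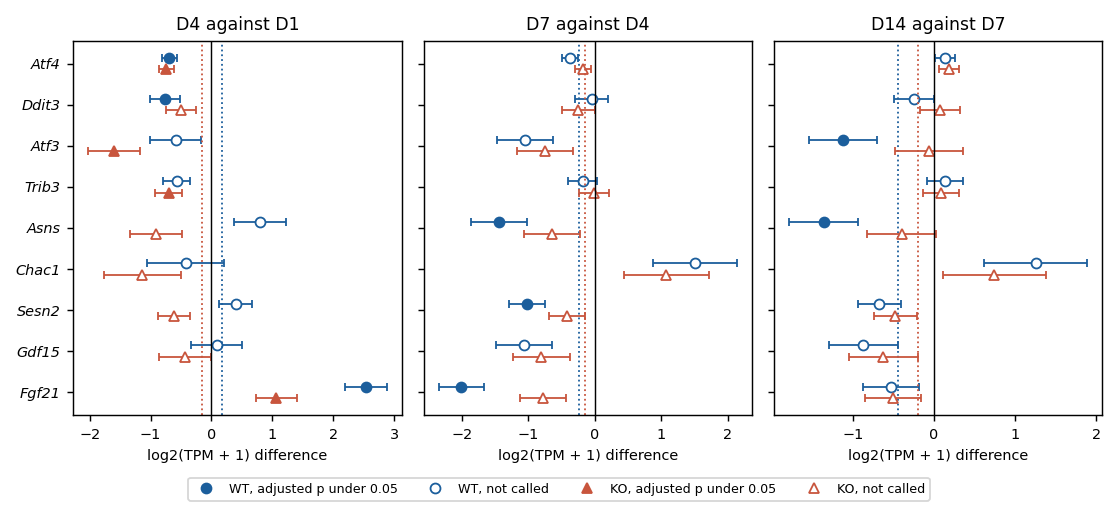
Log2(TPM + 1) difference of each step for the 9 genes in WT (blue circles) and KO (red triangles), with the SE as bars. Filled symbols passed an adjusted p under 0.05 and open ones did not, and dotted lines mark the median of all tested genes in each genotype. Atf4 lies near -0.7 from D1 to D4 in both, and Fgf21 is the gene that lies farthest right.

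Of the other genes of the pathway in WT, Ppp1r15a fell from 50.2 to 21.1 TPM between D1 and D4 (-1.17, adjusted p = 0.00403), with Atf5 (-0.83, adjusted p = 0.0016), Cebpb (-1.07, adjusted p = 0.0322), Dnajb9 (-1.42, adjusted p = 0.000256) and Hspa5 (-1.17, adjusted p = 0.0366). Nupr1, a chromatin-binding stress factor, was the partner factor that rose (1.01, adjusted p = 0.0399). Sesn1 and Sesn3 also rose, by 0.98 and 1.31, and Cdkn1a went from 124 to 282 TPM (1.21, adjusted p = 0.0361). By list, this step held 3 of 16 ER genes lower, 7 of 20 synthetases lower and, of 13 synthesis genes, 2 higher (Pycr1 and Pck2) and 1 lower (Gpt2), against 14.6% of all tested genes higher and 5.27% lower.

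Of the 3 steps after D1 in WT, the last held most of the calls in the synthesis and ER lists. From D7 to D14 in WT, 8 of 13 synthesis genes were called lower and 2 higher. Of the other lists, 12 of 16 ER genes, 5 of 7 transporters and 5 of 6 paralogs and receptors were called lower. The shares of all genes were 30.9% lower and 0.923% higher, with a median of -0.45. After median-of-ratios scaling 8.58% of all genes were called lower and 5.10% higher. Counts of these lists after that scaling are not given, so how far they depend on it is not shown. Psat1 went from 7.98 to 1.37 TPM (-1.89, adjusted p = 0.00748), Mthfd2 from 10.2 to 2.27 TPM (-1.78, adjusted p = 0.00579) and Slc7a5 from 5.84 to 1.55 TPM (-1.41, adjusted p = 0.0153). Cdkn1a fell by 1.86 on the log2 scale. These falls ran with 8 of 10 monocyte and macrophage markers called lower, whose sum was 1753 to 2383 TPM on D7 and 223 to 743 TPM on D14, and their part in the result was not tested.

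In KO, 14 of 16 ER genes were called lower from D1 to D4, against 12.2% of all genes, beside 14 of 20 synthetases and 5 of 7 transporters. Without the KO D4 replicate 2, a setting added after the data were seen, these counts were 8 of 16, 9 of 20 and 2 of 7, against 5.36% of all genes. Psat1 went from 38.5 to 10.9 TPM (-1.88, adjusted p = 0.0051) and Cebpb from 111 to 19.3 TPM (-2.41, adjusted p = 0.000224), and both were also called without that library (adjusted p = 0.025 and 0.000297). No gene of these lists was called on the later KO steps with all libraries, while without the KO D4 replicate 2 the step from D4 to D7 held 3 synthetases (Farsa, Gars and Kars) and the transporter Slc7a5 lower, against 8.08% of all genes. The difference between the genotypes in this step was tested gene by gene and none of 15718 genes passed, so a different timing of the fall in KO is not shown.

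The last question was whether loss of Gsdme changed the response. On no day did any of the 10 entries pass in limma, against 0.00636% of all tested genes on the first day and 0% on each later one. Nor did any pass in the average over days (0.00636%), in the test that the difference varies between days (0%) or in the 3 differences of steps (0% each). At an unadjusted p under 0.05 there was 1 entry on D1 (of 845 genes in all), 4 on D4 (of 3568) and 0 later (of 481 on D7 and 324 on D14). Counted by libraries without overlap, D1 held 0 entries with KO above WT, against 3.33% of all tested genes, and 0 with KO below, against 3.38%. D4 held 2 above (Chac1 and the short Ddit3 entry), against 2.77%, and 3 below (Asns, Atf4 and Sesn2), against 11.2%. D7 held 0 above, against 1.85%, and 1 below (Atf3), against 14.6%, and D14 held 1 above (Asns), against 7.37%, and 0 below, against 1.04%.

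D4 held most of the entries with a low unadjusted p. Asns was 11.4, 2.32 and 8.82 TPM in KO against 22.1, 13.0 and 13.9 TPM in WT, a log2 difference of -1.19 (SE 0.43, adjusted p = 0.212), with every KO library below every WT library. Fgf21 was 3.42, 0.00 and 2.25 TPM against 5.70, 3.37 and 5.71 TPM (-1.26, SE 0.34, adjusted p = 0.212), and the groups overlapped. Sesn2 was 4.08, 2.27 and 3.39 TPM against 8.42, 5.25 and 4.21 TPM (-0.69, SE 0.27, adjusted p = 0.212), also without overlap.

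These 3 differences rested in part on 1 library. Without the KO D4 replicate 2, Asns was -0.61, Fgf21 -0.62, Sesn2 -0.51 and Atf3 -0.56 in place of -0.87, each with an adjusted p of 0.905, and Gdf15 turned from -0.51 to 0.13. Without the KO D4 replicate 1, Fgf21 was -1.69 and the only entry called (adjusted p = 0.043). The share of all genes called in that fit is not given, so this call is not shown to be particular to Fgf21. The median of all genes on D4 was -0.28, so part of each difference was shared by the whole table. Macrophage sums were 3454 to 7589 TPM in WT D4 and 600 to 4843 TPM in KO D4, developmental myofibre sums 1240 to 1949 TPM and 52.1 to 1018 TPM, and their part was not tested.

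Chac1 went the other way on D4, with 8.45, 7.05 and 7.02 TPM in KO and 2.42, 3.79 and 4.63 TPM in WT, without overlap (0.91, SE 0.64, adjusted p = 0.334). On D1 it was 20.1, 22.6 and 12.03 TPM in KO and 14.0, 3.00 and 2.69 TPM in WT (1.62, SE 0.64, adjusted p = 0.873). On D7 it was 0.48 higher in KO with overlap. On D14 the difference was -0.03 on the log2 scale while the mean level was 44.8 TPM in KO and 29.8 TPM in WT, and it went from -0.84 without the KO D14 replicate 2 to 0.94 without the replicate 3. Averaged over the 4 days the difference was 0.74 (SE 0.32, adjusted p = 0.861), and a two-sided exact permutation test within days gave p = 0.0456 for this one gene, before any adjustment for the 10 entries tested that way. For 3 libraries against 3 on a single day the smallest p such a test allows is 0.1.

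For the transcription factors and Trib3 no difference reached the threshold. The KO minus WT differences of Atf4 were -0.15, -0.20, 0.00 and 0.05 from the first day to the last, with an SE of 0.12 on each. Those of Ddit3 were -0.37, -0.11, -0.31 and 0.02 (SE 0.25) and those of Trib3 -0.10, -0.23, -0.06 and -0.11 (SE 0.22). On D4 all KO libraries of Atf4 were below the WT libraries, 124.68 TPM at most against 124.81 TPM at least. Atf3 differed by 0.15, -0.87, -0.55 and 0.51 (SE 0.42), and on D7 all its KO libraries were below WT.

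Of the hormones, Gdf15 differed by 0.01, -0.51, -0.24 and 0.00 (SE 0.43), with 4.99, 2.84 and 3.07 TPM in KO D1 beside 3.21, 6.85 and 1.78 TPM in WT D1. Fgf21 was listed at 0 in all 6 libraries of D14. On D7 it was 0.22, 0.59 and 0.47 TPM in KO and 0.40, 0.40 and 0.54 TPM in WT, and on D1 at most 0.30 TPM in KO. The short Ddit3 entry was 88.1, 45.2 and 163 TPM in KO D4 against 7.13, 0.00 and 0.00 TPM in WT D4 (adjusted p = 0.205), with the uncertainty of an entry of 105 bases.

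**Figure D4:**
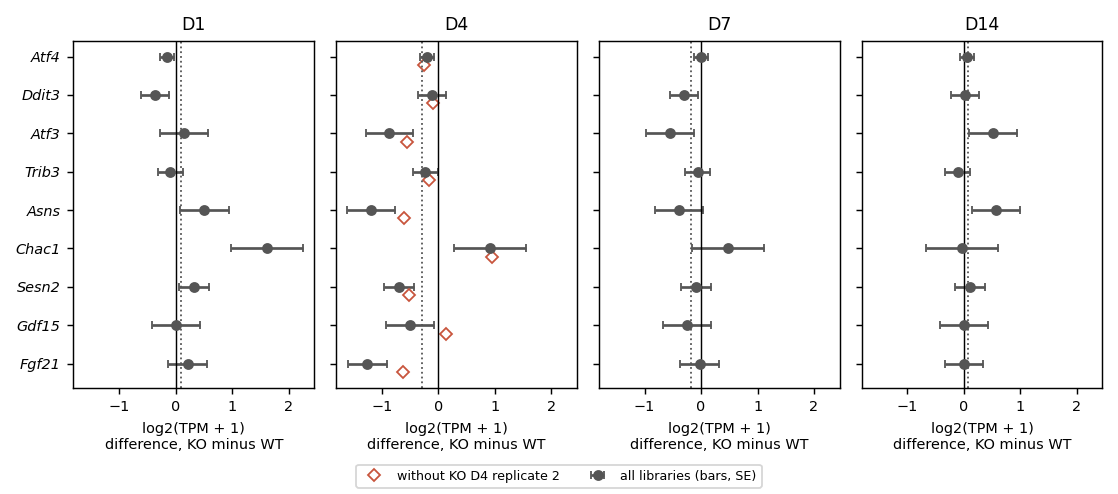
Log2(TPM + 1) difference of KO minus WT for the 9 genes on each day (3 libraries a group), with the SE as bars. Red diamonds on D4 give the estimate without the KO D4 replicate 2, and the dotted line is the median of all tested genes. No gene passed the threshold on any day, and on D4 Asns moves from -1.19 to -0.61 and Gdf15 from -0.51 to 0.13 without that library.

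No gene of the wider lists passed in KO against WT either. On D1 Cebpb averaged 111 TPM in KO and 49.4 TPM in WT without overlap (1.11, adjusted p = 0.873), and Ppp1r15a 28.5 and 50.2 TPM, also without overlap (-0.75, adjusted p = 0.873). On D4 the pathway genes with the lowest p values included the p53 target Ccng1 (0.72, adjusted p = 0.201), the glycyl-tRNA synthetase Gars (-0.77), the arginine carrier Slc7a1 (-0.72) and Slc7a5 (-1.17), each of these 3 with an adjusted p of 0.212. Of the synthesis genes, 7 of 13 had an unadjusted p under 0.05 on D4 with a median difference of -0.69, against 22.7% of all tested genes and an all-gene median of -0.28, among them Aldh18a1 of proline synthesis (adjusted p = 0.212), and of the synthetases 8 of 20 with a median of -0.33. Without the KO D4 replicate 2 these were 0 of 13 with a median of -0.31 and 3 of 20 with a median of -0.19, against 4.1% of all genes and a median of -0.11. On D7 and D14 none of the ER, synthesis or synthetase genes did. Eif2ak3 differed by 0.70, -0.59, -0.38 and 0.02 on the 4 days, without a call.

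Across the 24 injured libraries the genes formed patterns that are described by Pearson's r of log2 values, over libraries that share groups and tables. Asns, Gdf15 and Sesn2 were the most alike, with r = 0.946 between Asns and Sesn2 and 0.944 between Asns and Gdf15. Atf4 was most like Trib3 (0.876) among the members. Chac1 was the reverse of most, with -0.581 against Gdf15. Over all tested genes, the one most like Sesn2 was Elmo2 (0.980), most like Asns Tor2a (0.978), most like Gdf15 Phf11b (0.976) and most like Fgf21 Smim22 (0.972). For Atf3 it was Capg (0.963), for Atf4 Pwp2 (0.961), for Trib3 Abcb1b (0.901) and for Ddit3 Zfand2a (0.872). Chac1 was most like Gm10222 (0.820), followed by the mitochondrial genes mt-Nd5 and mt-Nd4.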

How the data were processed

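RNA-seq was made with the SMARTER mRNA kit and paired-end Illumina sequencing. The authors deposited TPM values per gene in 2 tables, of 24 injured libraries and of 6 libraries (3 control and 3 WT D1, which are in both tables). mm10 is named in the submitters' processing notes. Aligner, counter and strand setting are not given in the sources used here, and read depth is unknown, so no interval for counting error is given. Other columns held the authors' group means and gene lengths, which were not used as measurements.

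Values were analysed as log2(TPM + 1), which understates changes of low genes, for entries with at least 1 TPM in at least 3 libraries. Each table was fitted separately with limma 3.58.1 (R 4.3.3, group means, trended empirical Bayes), with Benjamini-Hochberg adjustment over all tested entries and a call at an adjusted p under 0.05, in 16 comparisons. The fit was tested on simulated data. Replicates are separate libraries of a group, and the labels do not say that each is a separate animal, so p-values measure the spread between libraries. The members and gene lists were chosen with earlier results of these data known. Named were all members, a preset set of pathway genes and, per list, up to 3 further called genes with the largest difference or, where none was called, up to 2 with the lowest p; others were chosen after their values were seen. Same-numbered libraries deviated together in every pair for KO D1 and D4 (r = 0.192, 0.377 and 0.255). So did those of KO D4 and D7 (0.283, 0.442 and 0.130), and the labels give no reason. Control and WT D1 also had only positive values, all near 0 (0.061, 0.041 and 0.002). By the study's methods control came from the leg opposite to injured muscle of that day, but no label pairs control and WT D1 libraries by animal. The main test left these groups unpaired and called 7965 genes, against 6952 with the replicate block. All other replicate numbers name libraries only. Alternatives were another pseudocount (0.1), no filter, a minimum of 5 TPM, median-of-ratios scaling, quantile normalization, library weights, a replicate block, fits of 2 groups and leaving out each library. In a further alternative the mitochondrial genes (named mt-) and genes above 1% of TPM in any library were removed and the libraries rescaled. Gene positions are from GENCODE on GRCm38, promoter letters from RefSeq.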

Additional observations from a re-analysis of the deposited data

Results flagged for a closer look

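Asns in KO against WT had opposite directions on 2 days. On D4 every KO library was below every WT library (log2 difference -1.19), and on D14 every KO library was above every WT library (0.57). The test that the difference varies between days gave an adjusted p of 0.527 over all tested genes in limma, so the change of direction is not shown. The D4 value was -0.61 without the KO D4 replicate 2. The D14 levels were low, 2.02 to 2.94 TPM in KO and 1.12 to 1.72 TPM in WT.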

How the results depend on the processing

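The result that reversed was Atf4 in WT D1 against control, which was -0.10 after median-of-ratios scaling (adjusted p = 0.633). Member counts moved beyond 1.5 times in these cases. For WT D1 against control (9 called), a minimum of 5 TPM gave 5, since fewer members were tested. Over all genes it called 5781 of 8828, against 7965 of 13041 in the main fit. For WT D14 against D7 (2), a pseudocount of 0.1 gave 5, no filter 0, library weights 7, the replicate block 1 and a fit of the 2 groups 6. Over all genes these fits called 5605, 3382, 9503, 5024 and 7940, against 5000 in the main fit. Without a filter 33258 genes were tested, otherwise 15718. For KO D4 against D1 (4), no filter, the minimum of 5 TPM and library weights gave 2 each and the 2 groups 0. Over all genes these fits called 2419 of 33258, 2635 of 11309, 2094 of 15718 and 52 of 15718, against 3049 in the main fit. Library weights gave 8 for WT D7 against D4 (4), beside 10595 of 15718 genes in all (1941 in the main fit). They gave 1 for KO D7 against D4 (0), beside 278 genes in all (0). For KO D14 against D7 (0) they gave 4, beside 7861 genes in all (88). The 2 groups gave 2 for WT D4 against D1 (4), beside 1163 genes in all (3120). Counts that moved with those of all genes show nothing particular to the members. Where not stated, the cause was not tested. Leaving out single libraries gave 7 to 9 for WT D1 against control, 3 to 4 for WT D4 against D1, 1 to 3 for WT D7 against D4, 0 to 2 for WT D14 against D7, 1 to 4 for KO D4 against D1, 0 to 2 for KO D7 against D4 and 0 to 1 for KO against WT on D4. For single libraries left out, shares of all genes are given only without the KO D4 replicate 2. The replicate block changed no other call of a member. Genotype counts stayed at 0 in the other alternatives run. Of the member values under alternatives, 2248 kept direction and side of the threshold, 71 lost a call, 38 gained one and 156 changed sign without a call in either. Adding a base to the motif left 5 genes. Low TPM and unknown depth limit Fgf21, Gdf15 and Trib3.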
